A study of Homo sapiens with 6 samples.

Results

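Cytoplasmic ribosomal protein genes were measured by RNA sequencing in LX-2 cells, an immortalised line made from human hepatic stellate cells, with and without transforming growth factor beta 1 (TGF-β1), a cytokine that drives stellate cells to make scar matrix. The genes were chosen by name, as the RPL and RPS symbols with a number, an A, X or L suffix, or the names RPLP0 to RPLP2 and RPSA. This rule found 83 of the 27830 genes in the table, 51 of the large and 32 of the small subunit, among them 6 paralogs whose names end in L or L1. The groups were 3 libraries of LX-2 cells given TGF-β1 at 10 ng/ml for 24 h and 3 control libraries of untreated LX-2 cells. The cells were grown with fetal bovine serum and TGF-β1 was given without it. Which medium the controls had during those hours is not stated in the labels, so an effect of TGF-β1 and one of serum withdrawal cannot be told apart. LX-2 is 1 line. Whether the 3 libraries of a group were separate cultures is also not stated, and if they were not, the p-values below reflect technical spread.

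A ribosome consists of ribosomal RNA and many small proteins, which are needed in matched amounts and are assembled, mostly in the nucleolus, into a large and a small subunit. Messenger RNAs of ribosomal proteins begin with a C followed by an unbroken run of pyrimidines, the terminal oligopyrimidine (TOP) motif, through which LARP1 and the kinase mTOR set how much of them is translated. The level of such an RNA therefore does not give the rate at which its protein is made. In bulk RNA, fewer cells of a type and less RNA per cell cannot be told apart.

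Library totals ran from 13866957 to 17694675 counts, and 3 counts, used here as a floor, equal 0.17 to 0.216 CPM, where CPM is a count scaled to a common library size. TGF-β1 replicate 1 stood apart from the other libraries for ribosomal protein genes and in its dependence on GC content, and values without it are given beside the main results and the genes it moves most. Of 10 stellate cell markers, 8 averaged at least 1 CPM, while DES had 1 to 5 counts per library and LRAT 0 to 2. With TGF-β1 and in the controls, COL1A1 stood at 1780 and 1319 CPM and COL3A1 at 157 and 94.3 CPM, while VIM stood at 1232 and 1407, PDGFRB at 47.5 and 47.2 and ACTA2 at 4.78 and 4.96 CPM. COL1A2 was low, at 2.91 CPM with TGF-β1 and 2.2 CPM in the controls. Of markers of other cell types, EPCAM and APOA1 had at most 1 count per library, KRT19 at most 2, CDH5 at most 4 and LYZ at most 5, and PTPRC had 3 to 16. Others were measured at more than this, and some of them stood above PDGFRB. TIE1 stood at 287 CPM with TGF-β1 and 326 CPM in the controls, FLT1 at 149 and 116, and KRT8 at 341 and 376. In the same order KRT18 stood at 182 and 220 CPM and CPS1 at 37.2 and 25.4 CPM. The 5 endothelial markers, nearly all TIE1 and FLT1, summed to 429 to 447 CPM with TGF-β1 and 438 to 451 CPM in the controls. The summed leukocyte markers, 4 in the table, stood at 20.1 to 22.1 CPM with TGF-β1 and 25 to 31.5 CPM in the controls, and 3 hepatocyte markers at 57.2 to 72.5 and 50.3 to 54.1 CPM. Nearly all of the leukocyte sum was CD14, at 10.3 and 15.6 CPM, and ITGAX, at 9.69 and 12.9 CPM, in the same order. PTPRC went the other way, at 0.796 CPM with TGF-β1 and 0.383 CPM in the controls. The 4 epithelial markers, nearly all KRT8 and KRT18, were lowest in TGF-β1 replicate 1, at 420 CPM, against 542 to 662 CPM in the other libraries. The part of these markers in the results was not tested.

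The starts of ribosomal protein genes shared a sequence feature that the choice of members did not use. Promoter sequences from RefSeq on GRCh38.p14 were matched to 66 of the 83 members, with 82 annotated starts. In the 40 bases around the start, an unbroken run of at least 8 C or T letters on the sense strand was found at 63 of the 82 starts, or 76.8%, against 17.3% of 15549 starts of all genes tested for expression and 13.4% of 82 starts of mitochondrial ribosomal protein genes. On the other strand the share was 4.88%, against 13.9% of starts of the genes tested. A run is a description of these letters and not a mapped site, and its absence says only that the letters are not in this window. The windows below are printed 5′ to 3′ over 30 bases, the sixteenth letter being the annotated start, with runs of at least 8 pyrimidines in capitals. The first group holds abundant members and members described below, and the second sets conventional genes beside their paralogs.
RPS12: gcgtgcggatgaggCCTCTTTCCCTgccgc
RPLP0: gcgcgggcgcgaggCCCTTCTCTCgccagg
RPS21: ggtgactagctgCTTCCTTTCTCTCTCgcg
RPL28: tcgcccctcgCCTTCCTCTTTCCgtctcag
RPS3A: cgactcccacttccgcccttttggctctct
RPS29: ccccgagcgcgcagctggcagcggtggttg
RPS27: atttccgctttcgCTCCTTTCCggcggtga
RPS27L: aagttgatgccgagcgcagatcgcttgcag
RPL26: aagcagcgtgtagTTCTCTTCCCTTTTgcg
RPL26L1: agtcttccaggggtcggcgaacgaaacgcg
RPL22: tagttcgctcaCCTCCCTTTCTaactccgc
RPL22L1: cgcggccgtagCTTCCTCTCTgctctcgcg
RPL7L1: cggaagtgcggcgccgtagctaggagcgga

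These windows lie at chr6:132814554-132814583 for RPS12 and chr20:62387088-62387117 for RPS21 on the plus strand, and at chr12:120201097-120201126 for RPLP0 and chr14:49598696-49598725 for RPS29 on the minus strand. The longest run was 11 letters in RPS12, 15 in RPS21 and 7 in RPS3A, which fell just short of the limit. The conventional genes RPS27 and RPL26 had runs of 9 and 14 letters. Their paralogs RPS27L and RPL26L1 had longest runs of 3 and 6 letters, and RPL7L1 had 2. RPL22L1 differed from these paralogs in this respect, with a run of 10 letters beside 11 in RPL22. RPL26L1 has another annotated start further downstream, where the longest run was 3 letters.

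Levels were compared between genes on the deposited FPKM scale, which divides counts by gene length and by library size. Ribosomal protein genes were among the abundant transcripts: 73 of the 83 averaged at least 10 FPKM over the 6 libraries, against 15.8% of all genes in the table, and their median was 137 FPKM. RPS12, a protein of the head of the small subunit, was highest, at 641 ± 80.6 FPKM with TGF-β1 and 695 ± 40.6 FPKM in the controls (SD, n = 3 each, as in all values below). RPS2, at the entry of the messenger RNA channel, followed with 521 ± 83 FPKM with TGF-β1 and 512 ± 73.4 FPKM in the controls. RPLP0, which anchors the stalk that recruits elongation factors, had 428 ± 71.9 FPKM with TGF-β1 and 511 ± 45.4 FPKM in the controls. RPL41, the smallest ribosomal protein, had 431 ± 58.9 and 435 ± 28.8 FPKM, and RPSA, also known as a laminin receptor precursor, 390 ± 68.4 and 441 ± 39.2 FPKM, again with TGF-β1 and in the controls. These groups of 3 libraries overlapped for each of these 5 genes. The gene length behind FPKM was a whole number that followed from the deposited counts and was the same in all 6 libraries. It ran from 639 bases for RPS12 to 9840 bases for RPS29 among the tested members, although ribosomal protein messenger RNAs are short, so the order of levels depends on these lengths.

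**Figure D1:**
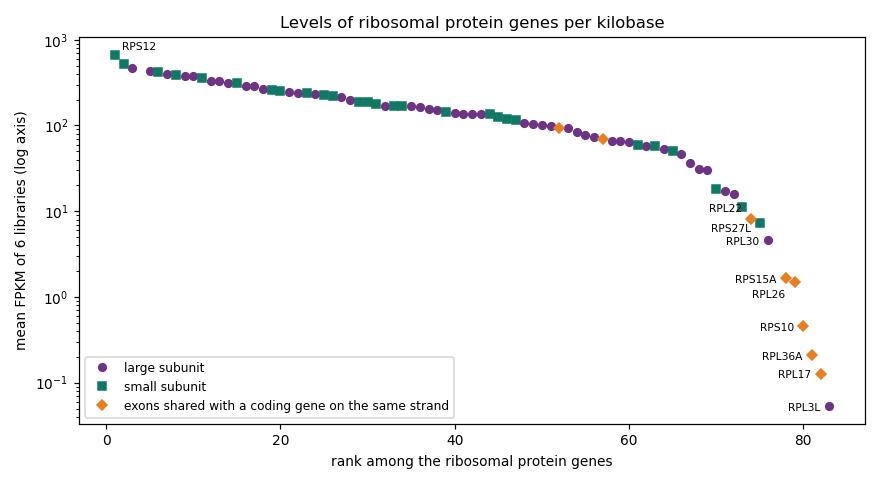
Mean FPKM of the 6 libraries (log axis) for the ribosomal protein genes described here, ranked from highest to lowest, with circles for the large and squares for the small subunit and diamonds for genes whose exons overlap a protein-coding gene on the same strand. RPS12 leads at 668 FPKM, and most of the labelled genes below 10 FPKM are diamonds.

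Most of the 10 members under 10 FPKM overlap another coding gene. In GENCODE release 29, exons of 9 members overlap a protein-coding gene on the same strand, and 7 of these 9 were among the 10 low members. They included RPL22 (8.04 FPKM), RPS15A (1.66), RPL26 (1.48), RPS10 (0.459), RPL36A (0.21) and RPL17 (0.127), each as the mean of 6 libraries. The median was 1.66 FPKM over the 9 overlapping members and 153 FPKM over the other 74. For the 7 low members the overlapping genes are RPL17-C18orf32, RPL36A-HNRNPH2, RPS10-NUDT3 and genes named by clone, none of which has a row in the deposited table. For the 2 others, RPL36 and RPS13, the partners HSD11B1L and PIK3C2A had counts of their own, and these members stood at 70.1 and 94.5 FPKM. RPS10 had 12, 15 and 28 counts with TGF-β1 and 12, 17 and 14 in the controls, each in replicate order as in all values below, and RPS15A had 150 to 205 counts per library. The sources used here do not say how reads shared by overlapping genes were counted, so the levels of these 7 genes are uncertain, and the part of the overlap in them was not tested. The others of the 10 were RPL30 (4.61 FPKM), whose exons overlap an antisense gene over 21.6% of their bases, RPS27L (7.26 FPKM) and RPL3L (0.0532 FPKM), known as the paralog of heart and skeletal muscle. RPL3L had 1, 0 and 6 counts with TGF-β1 and 3, 2 and 1 in the controls, where the count of 0 allows up to 0.182 CPM. RPL17 had 10, 5 and 1 counts with TGF-β1 and 5, 7 and 2 in the controls. Across all 83 members, 32 overlap no other annotated gene, and since the libraries do not keep strand, reads of the rest may include those of a neighbour on either strand. RPL3L and RPL17 were left out by the filter on low counts, and the other 81 members were tested.

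The question of the study was which genes differ after TGF-β1. Counts were tested with edgeR's quasi-likelihood test on TMM-scaled library sizes, with p-values adjusted by Benjamini-Hochberg over 14463 genes. Among the 81 tested ribosomal protein genes edgeR called 0 higher and 0 lower at an adjusted p under 0.05, where 0.187% of all tested genes were called higher and 0.18% lower, or 0.366% in either direction. At an unadjusted p under 0.05, 4 members passed, or 4.94%, against 15.6% of all tested genes, and all 4 belonged to the small subunit. DESeq2 called 1 member lower, RPS29, beside 0.844% of all genes, and limma voom called 0. The differences were small and mostly negative. The log2 difference was below 0 for 61 of the 81 members, against 49.0% of all tested genes, with a median of -0.13 beside 0.01 over all tested genes. Without TGF-β1 replicate 1 it was below 0 for 46 members, beside 50.3% of all genes. The number of members with an unadjusted p under 0.05 was 1 without TGF-β1 replicate 1 (11.1% of all genes tested there), without control replicate 1 (11.2%) or without control replicate 2 (9.55%). It was 20 without TGF-β1 replicate 3, where 28.0% of all genes passed, and 12 with the trend on GC content removed, where 20.8% passed. The difference lay within 0.3 of 0 on the log2 scale for 75 members, and the standard deviation over members was 0.17. The 95% interval of the difference, with a median half-width of 0.31, lay inside a 1.5-fold change in either direction for 69 members and inside a 2-fold change for 78. The 3 members with wider intervals were RPL26, RPL36A and RPS10, all of low count. TGF-β1 libraries lay wholly below the controls for 6 members, against 9.12% of all tested genes, and wholly above for 1 member, against 7.93%. The 6 were RPS29, RPS20, RPS4X, RPL22L1, RPS27L and RPL7L1, and the 1 was RPS23.

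**Figure D2:**
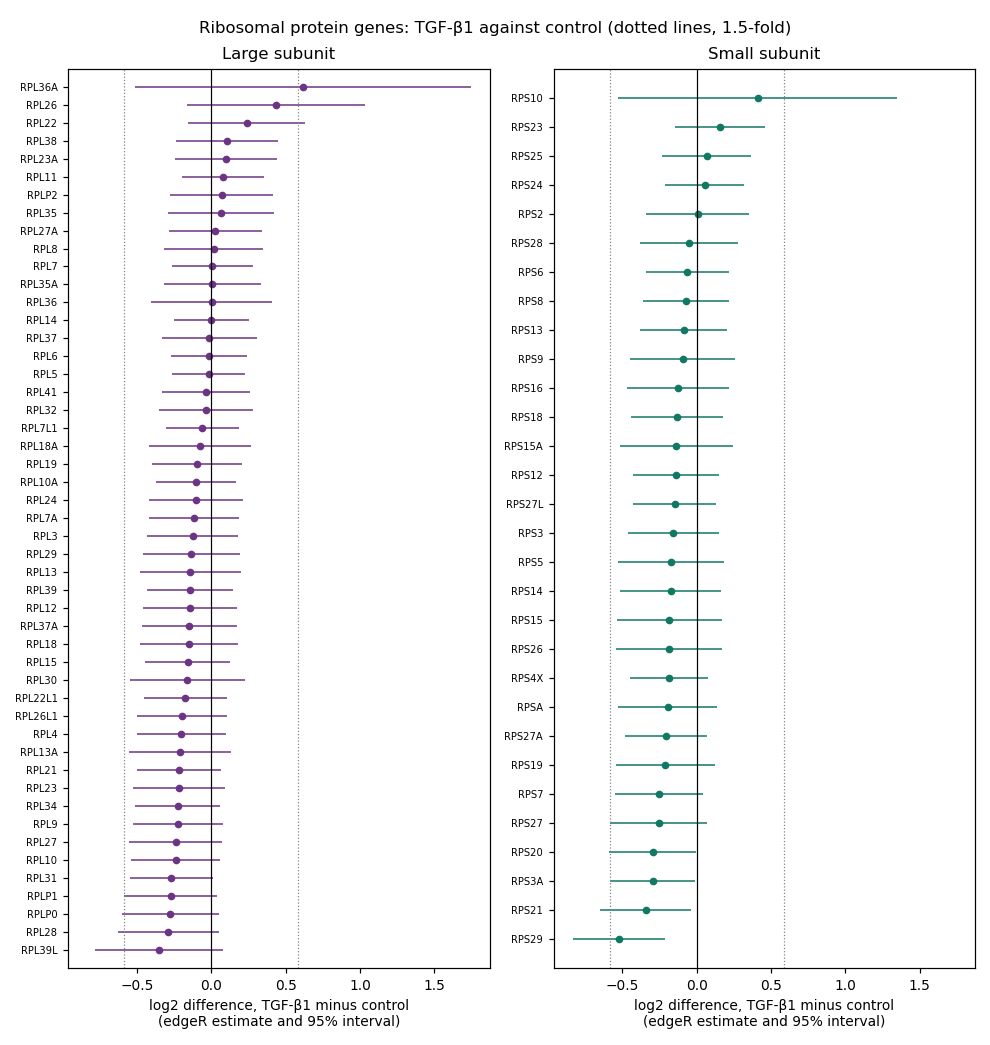
Log2 difference between TGF-β1 and control for the large and small subunit genes described here, as edgeR estimate (point) and 95% interval (line), with dotted lines at a 1.5-fold change. Most points lie slightly below 0, RPS29 is the lowest at -0.52, and intervals are wide for RPL36A, RPL26 and RPS10.

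The negative values were uneven across libraries. The median deviation of the 81 members from each gene's own mean, on the log2 scale, was -0.30, 0.01 and 0.09 in the TGF-β1 libraries and 0.06, 0.20 and -0.04 in the control libraries, both in replicate order. TGF-β1 replicate 1 was the lowest of the 6 libraries for 70 of the 81 members, and control replicate 2 was the highest for 52. TGF-β1 replicate 1 lay below each control for 72 members, TGF-β1 replicate 2 for 25 and TGF-β1 replicate 3 for 12. Between libraries of a group the median deviation had an SD of 0.17, pooled over both groups, which is larger in size than the median log2 difference of -0.13. This SD is a spread of single libraries and not the error of a difference between means of 3 libraries. The median log2 difference was -0.02 without TGF-β1 replicate 1 and -0.08 without control replicate 2, against -0.20 without TGF-β1 replicate 3 or without control replicate 3.

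TGF-β1 replicate 1 also stood apart in its dependence on GC content. For the 59 tested genes of lowest GC content (35% or less of the transcript), the median deviation in the TGF-β1 libraries was 0.68, 0.29 and -0.18, and in the control libraries -0.14, -0.28 and -0.23. With a smooth trend on GC content removed from each library, the median deviation of the members in TGF-β1 replicate 1 was -0.31, and the median log2 difference was -0.11. Across the 81 members, which share libraries, the log2 difference had a Spearman correlation of 0.05 with GC content, -0.08 with gene length and -0.31 with mean CPM. In TGF-β1 replicate 1 the mitochondrial ribosomal protein genes had a median deviation of -0.18 as deposited and -0.20 with the GC trend removed. For other TOP messenger RNAs these values were -0.06 and -0.21, for host genes of small nucleolar RNAs -0.15 and -0.19, and for ribosome biogenesis factors -0.01 and -0.04.

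**Figure D3:**
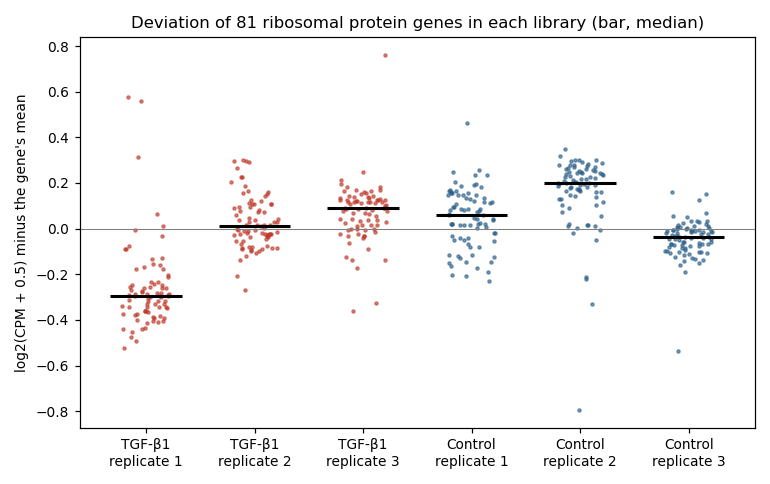
Deviation of each of the 81 tested ribosomal protein genes from its mean over 6 libraries, in log2(CPM + 0.5), with 1 point per gene and the median as a bar. The bar of TGF-β1 replicate 1 lies at -0.30, that of control replicate 2 at 0.20, and those of the other 4 libraries between -0.04 and 0.09.

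As a share of all counts, ribosomal protein genes took 3.30%, 4.2% and 4.24% in the 3 TGF-β1 libraries and 4.26%, 4.55% and 3.96% in the 3 controls. Wilson 95% intervals of these shares reached at most 0.0106 percentage points to either side and cover counting error only. The groups overlapped, with means of 3.91% ± 0.53 with TGF-β1 and 4.25% ± 0.297 in the controls, and without TGF-β1 replicate 1 the difference between the means was -0.0384 percentage points. Pseudogenes named after ribosomal proteins, 329 genes in the table, took 0.0248% to 0.0293% of counts, so few of the reads were assigned to them. Reads that match a gene and a processed pseudogene equally may have been lost or split, which was not tested.

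Large and small subunit genes kept nearly the same ratio in every library. Large subunit counts divided by small subunit counts gave 1.66, 1.65 and 1.6 in the TGF-β1 libraries and 1.59, 1.62 and 1.64 in the controls, with means of 1.64 ± 0.0308 and 1.62 ± 0.0236. On the FPKM scale it was 1.26 ± 0.0206 with TGF-β1 and 1.24 ± 0.0167 in the controls. The groups overlapped on both scales, while the share itself varied between 3.30% and 4.55%. The median log2 difference was -0.11 over 49 large subunit genes, 35 of them negative, and -0.14 over 32 small subunit genes, 26 of them negative. With 1 library left out, the large subunit median ran from -0.19 to -0.0078 and the small subunit median from -0.24 to -0.03. Both were nearest 0 without TGF-β1 replicate 1. No member of either subunit passed the edgeR test.

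In the small subunit the lowest value was that of RPS29, a zinc-binding protein of the head whose gene is mutated in some families with Diamond-Blackfan anaemia. RPS29 had 137, 146 and 160 CPM with TGF-β1 and 242, 216 and 177 CPM in the controls. All 3 TGF-β1 libraries were below all 3 controls, with the smallest gap between TGF-β1 replicate 3 and control replicate 3. The log2 difference of -0.52 ± 0.14 (SE), which is 1.44-fold lower, had a 95% interval of -0.83 to -0.22 and did not pass the test (edgeR adjusted p = 0.14). RPS29 passed in 5 of 19 other settings, with adjusted p from 0.00858 to 0.39 over the 19. The 5 were DESeq2 (adjusted p = 0.0365), the removal of the GC trend (log2 difference -0.59, edgeR adjusted p = 0.0366, where 1.67% of all genes were called lower), the removal of GC and length trends (edgeR adjusted p = 0.0286, 2.4% of all genes), no filter (edgeR adjusted p = 0.00858, 0.607% of all genes) and the fit without TGF-β1 replicate 3 (edgeR adjusted p = 0.025, 2.0% of all genes). Without TGF-β1 replicate 1 the log2 difference was -0.48 (edgeR adjusted p = 0.0566). Its log2 difference was between -0.65 and -0.42 in all 19. The gene (GRCh38, minus strand, chr14:49570984-49599164) shares 8.85% of its exon bases with LRR1 on the opposite strand and with a processed pseudogene, and reads there cannot be assigned with certainty. As printed above, the window at its annotated start holds no run of 8 pyrimidines. This says only that the letters are not in this window, and the span of the gene reaches beyond the window on both sides.

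The other small subunit members with an unadjusted p under 0.05 were RPS21, RPS3A and RPS20. RPS21, which takes part in the maturation of the small subunit RNA, had 283, 370 and 340 CPM with TGF-β1 and 437, 457 and 365 CPM in the controls, so that the groups overlapped by 1 library on each side (log2 difference -0.34 ± 0.14 SE, edgeR adjusted p = 0.269). RPS3A, near the exit of the messenger RNA channel, had 254, 267 and 316 CPM with TGF-β1 and 368, 346 and 313 CPM in the controls (log2 difference -0.30 ± 0.13 SE, edgeR adjusted p = 0.299). RPS20, a protein of the head, had 303, 366 and 375 CPM with TGF-β1 and 428, 473 and 381 CPM in the controls, with no overlap (log2 difference -0.30 ± 0.13 SE, edgeR adjusted p = 0.316). Exons of RPS3A overlap SH3D19 on the opposite strand and a small nucleolar RNA over 14.0% of their bases. In all 4 genes, RPS29 included, TGF-β1 replicate 1 was the lowest library, as it was for most members, and without it the log2 differences of RPS21, RPS3A and RPS20 were -0.24, -0.24 and -0.21. The value of RPS3A was -0.46 with the GC trend removed (edgeR adjusted p = 0.129).

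RPS23, which sits at the decoding centre, was the 1 member with all TGF-β1 libraries above the controls. It had 47.7, 46.8 and 50.4 CPM with TGF-β1 and 43.9, 39.3 and 46.5 CPM in the controls, which gives 0.16 ± 0.14 (SE) on the log2 scale (edgeR adjusted p = 0.616). With the GC trend removed its value was 0.05 (edgeR adjusted p = 0.83), and without control replicate 2 it was 0.07. Its exons overlap ATG10 on the opposite strand over 8.9% of their bases. RPS10, another head protein, was the small subunit gene with the largest positive value, 0.41 ± 0.43 (SE, edgeR adjusted p = 0.681). That value rests on 28 counts in TGF-β1 replicate 3, and the log2 difference was -0.15 without this library. RPS4X, encoded on the X chromosome, had 763, 881 and 919 CPM with TGF-β1 and 1008, 969 and 942 CPM in the controls, a difference of -0.19 ± 0.12 (SE, edgeR adjusted p = 0.482), or -0.12 without TGF-β1 replicate 1. Over 14 tested proteins of the head, chosen from textbook knowledge of the subunit, 11 had a negative value, with a median of -0.15. Over all 32 small subunit genes 26 were negative, with a median of -0.14. With the GC trend removed the medians were -0.08 for the head and -0.12 for the small subunit.

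In the large subunit, RPLP0 and RPLP1 of the stalk had nearly equal values, and RPLP2 was close to 0. RPLP0 had 1393, 1685 and 2022 CPM with TGF-β1 and 2105, 2239 and 1823 CPM in the controls (log2 difference -0.27 ± 0.15 SE, edgeR adjusted p = 0.403). RPLP1 had 772, 1015 and 1024 CPM with TGF-β1 and 1147, 1247 and 1003 CPM in the controls (log2 difference -0.27 ± 0.14 SE, edgeR adjusted p = 0.382). RPLP2, which pairs with RPLP1 in the stalk, had 222, 334 and 287 CPM with TGF-β1 and 245, 305 and 254 CPM in the controls, a log2 difference of 0.07 ± 0.16 (SE, edgeR adjusted p = 0.862). The intervals of the 3 genes overlap, the difference between them was not tested, and the groups overlapped for each of them. Without TGF-β1 replicate 1, the lowest library for all 3, the values of RPLP0, RPLP1 and RPLP2 were -0.15, -0.15 and 0.21. RPLP0 was at -0.42 without TGF-β1 replicate 3, and RPLP2 at -0.07 without TGF-β1 replicate 2 and 0.18 with the GC trend removed. RPL28 had 437, 579 and 666 CPM with TGF-β1 and 723, 714 and 618 CPM in the controls, so that its groups overlapped too (log2 difference -0.29 ± 0.16 SE, edgeR adjusted p = 0.395, and -0.14 without TGF-β1 replicate 1).

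RPL5 and RPL11 form a particle with 5S ribosomal RNA that binds MDM2 when ribosome assembly is disturbed. RPL5 had 571, 641 and 596 CPM with TGF-β1 and 615, 611 and 604 CPM in the controls. This gives -0.02 ± 0.11 (SE) on the log2 scale, and the 95% interval runs from -0.26 to 0.23 (edgeR adjusted p = 0.956). RPL11 had 257, 316 and 264 CPM with TGF-β1 and 248, 274 and 269 CPM in the controls, or 0.08 ± 0.13 (SE) with limits of -0.19 and 0.36 (edgeR adjusted p = 0.787). The median deviation of the 2 genes in TGF-β1 replicate 1 was -0.08, and -0.29 with the GC trend removed. With that trend removed, the log2 difference was -0.22 for RPL5 and 0.09 for RPL11. Of 8 tested proteins around the peptide exit tunnel, 4 had a negative value, and their median was -0.02. Over all 49 tested large subunit genes 35 were negative, with a median of -0.11. With the GC trend removed the medians were 0.05 for the exit tunnel and -0.09 for the large subunit.

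Several members are known for roles outside these groups, and they were named after their values were seen. RPS6, the substrate of S6 kinase downstream of mTOR, had 432, 528 and 545 CPM with TGF-β1 and 542, 531 and 498 CPM in the controls (log2 difference -0.06 ± 0.13 SE, edgeR adjusted p = 0.843). RPS19, the gene most often mutated in Diamond-Blackfan anaemia, had 661, 879 and 977 CPM with TGF-β1 and 973, 1055 and 883 CPM in the controls (log2 difference -0.21 ± 0.15 SE, edgeR adjusted p = 0.54). RPS14, lost in the 5q deletion of myelodysplasia, had 454, 580 and 651 CPM with TGF-β1 and 626, 723 and 553 CPM in the controls (log2 difference -0.17 ± 0.15 SE, edgeR adjusted p = 0.622). In these 3 genes the low library of the TGF-β1 group was replicate 1, and the other TGF-β1 libraries lay within or close to the range of the controls. Without replicate 1 the log2 differences of RPS6, RPS19 and RPS14 were 0.03, -0.07 and -0.05. RPL13A and RPS18 are in use as reference genes in quantitative PCR. RPL13A had 950, 1303 and 1369 CPM with TGF-β1 and 1344, 1604 and 1247 CPM in the controls, and its 95% interval on the log2 scale ran from -0.56 to 0.13. RPS18 had 567, 712 and 779 CPM with TGF-β1 and 737, 833 and 685 CPM in the controls, with an interval of -0.44 to 0.18. Without TGF-β1 replicate 1 their log2 differences were -0.07 and -0.01, against -0.21 and -0.13 with all libraries.

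The largest positive values in the large subunit belonged to low or overlapping genes. RPL36A had 23, 18 and 7 counts with TGF-β1 and 12, 4 and 15 in the controls (log2 difference 0.62 ± 0.52 SE, edgeR adjusted p = 0.599). RPL26 had 90, 75 and 36 counts with TGF-β1 and 47, 51 and 50 in the controls (log2 difference 0.44 ± 0.27 SE, edgeR adjusted p = 0.472). RPL22, which binds RNA outside the ribosome as well, had 46.2, 42.8 and 32.7 CPM with TGF-β1 and 33.4, 29.4 and 40.4 CPM in the controls (log2 difference 0.24 ± 0.18 SE, edgeR adjusted p = 0.555). In all 3 genes TGF-β1 replicate 1 was the highest library, the reverse of most members. Without it the values of RPL36A, RPL26 and RPL22 were 0.30, 0.20 and 0.13, and without control replicate 2 those of RPL36A and RPL22 were 0.16 and 0.11. Without TGF-β1 replicate 3 RPL26 was at 0.67 and RPL22 at 0.37, and RPL36A was at 0.93 without control replicate 3.

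**Figure D4:**
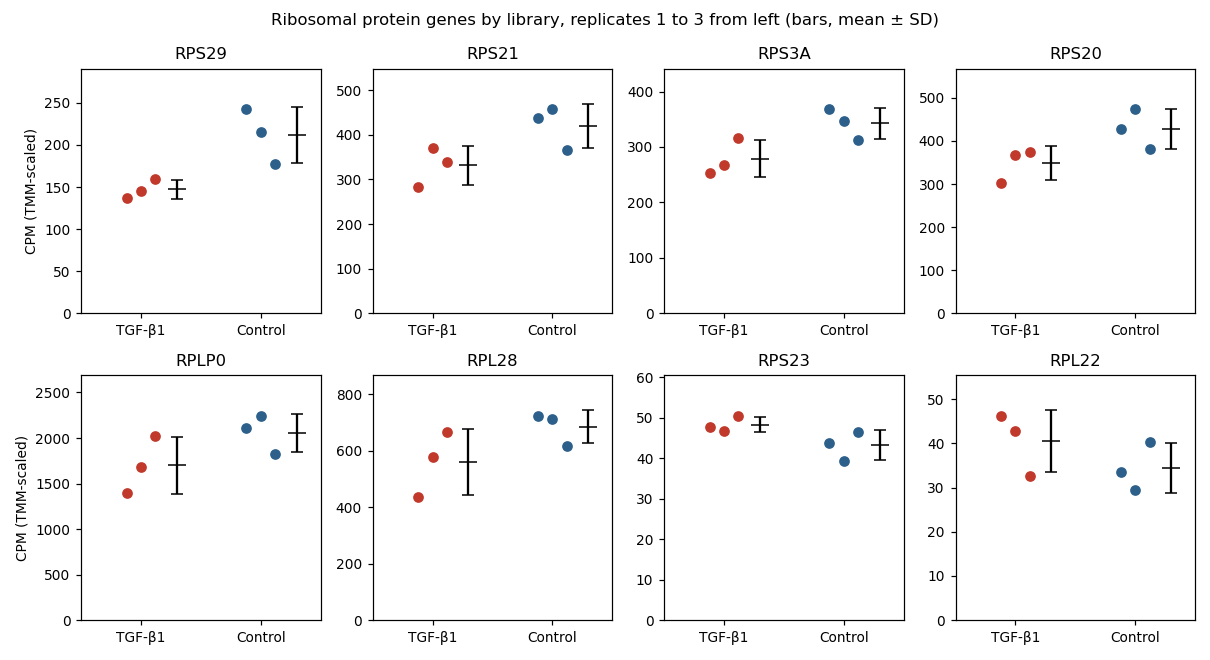
CPM on TMM-scaled library sizes in each library for 8 ribosomal protein genes, with replicates 1 to 3 from left to right within TGF-β1 (left) and control (right), and bars for the mean ± SD. RPS29 and RPS20 have no overlap and lie lower with TGF-β1, RPS23 lies higher, and TGF-β1 replicate 1 is the lowest point for RPS29, RPS21, RPS3A, RPS20, RPLP0 and RPL28.

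Paralogs were compared with the conventional genes as log2 ratios of counts within each library, which need no scaling for library size. These ratios keep the trend of each library on GC content. They were not computed with that trend removed, so the log2 differences of both genes with it removed are given for each pair. With 3 against 3 libraries the exact two-sided permutation test cannot give a p below 0.1, and none of the 5 pairs reached it. RPL22L1, which can take the place of RPL22 in the ribosome, stood above it on the FPKM scale in both groups, at 338% ± 74.9 of it with TGF-β1 and 446% ± 80.0 in the controls. The log2 count ratio of RPL22L1 to RPL22 was 0.27, 0.48 and 0.89 with TGF-β1 and 1.06, 1.15 and 0.64 in the controls, a difference of -0.41, or -0.27 without TGF-β1 replicate 1 (exact permutation p = 0.2, adjusted p = 0.5 over 5 pairs). TGF-β1 replicate 3 and control replicate 3 crossed. RPL22L1 itself had 55.6, 59.8 and 60.5 CPM with TGF-β1 and 69.9, 65.4 and 63.1 CPM in the controls, with no overlap (log2 difference -0.17 ± 0.13 SE, edgeR adjusted p = 0.544). With the GC trend removed its value was -0.51 (edgeR adjusted p = 0.117), and that of RPL22 was 0.21. Since RPL22 is 1 of the genes whose exons overlap a coding gene on the same strand, the level of this ratio is uncertain.

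RPL26L1 exceeded RPL26 by 3.96 ± 0.64 with TGF-β1 and 4.51 ± 0.18 in the controls on the log2 count scale, a difference of -0.56 (exact permutation p = 0.3, adjusted p = 0.5). This difference was -0.26 without TGF-β1 replicate 1 and -0.90 without TGF-β1 replicate 3. The ratio rests on the few counts of RPL26, which overlaps another gene over 14.3% of its exon bases, and is uncertain for that reason. RPL26L1 alone had 53.8 ± 4.72 FPKM with TGF-β1 and 60.7 ± 5.34 FPKM in the controls. The log2 differences of RPL26L1 and RPL26 were -0.19 and 0.44, and -0.20 and 0.31 with the GC trend removed. RPL39L, known for its role in the testis, where it replaces RPL39 in the wall of the exit tunnel, stood at 20.1% ± 2.54 of RPL39 on the FPKM scale with TGF-β1 and 23.4% ± 0.865 in the controls. Its log2 count ratio to RPL39 was -3.53, -3.38 and -3.17 with TGF-β1 and -3.09, -3.13 and -3.20 in the controls, a difference of -0.22, or -0.14 without TGF-β1 replicate 1 (exact permutation p = 0.2 over all libraries, adjusted p = 0.5). RPL39L itself had 11.9, 16.1 and 18.5 CPM with TGF-β1 and 20.6, 21.4 and 17.1 CPM in the controls (log2 difference -0.35 ± 0.20 SE, edgeR adjusted p = 0.415), the most negative value of the large subunit. It was -0.19 without TGF-β1 replicate 1, the lowest library, and -0.50 without TGF-β1 replicate 3. The log2 difference of RPL39 was -0.14, and with the GC trend removed RPL39L and RPL39 were at -0.35 and -0.24.

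RPS27L, known as a target of p53, stood at 3.36% ± 0.381 of RPS27 on the FPKM scale with TGF-β1 and 3.09% ± 0.214 in the controls. The deposited gene length is 8825 bases for RPS27L and 1028 for RPS27, so these percentages lie far below the ratio of counts. The log2 count ratio of RPS27L to RPS27 was -1.80 ± 0.17 with TGF-β1 and -1.92 ± 0.10 in the controls (exact permutation p = 0.4, adjusted p = 0.5), and the difference of 0.12 was 0.04 without TGF-β1 replicate 1. RPS27L had 55.6, 63.5 and 63.7 CPM with TGF-β1 and 67.3, 69.5 and 65.5 CPM in the controls (log2 difference -0.15 ± 0.13 SE, edgeR adjusted p = 0.617), and RPS27 had 214 ± 38.4 CPM with TGF-β1 and 256 ± 25.1 CPM in the controls (log2 difference -0.26 ± 0.15 SE, edgeR adjusted p = 0.441). With the GC trend removed RPS27L was at -0.41 (edgeR adjusted p = 0.19) and RPS27 at -0.21, so that RPS27L then had the more negative value. Without TGF-β1 replicate 1 RPS27L and RPS27 were at -0.09 and -0.13. RPL7L1, which acts in ribosome biogenesis, stood at 26.6% ± 3.64 of RPL7 with TGF-β1 and 27.6% ± 2.06 in the controls, and its log2 count ratio differed by -0.06 (exact permutation p = 0.8, adjusted p = 0.8), with -0.16 without TGF-β1 replicate 1 and 0.03 without TGF-β1 replicate 2. RPL7L1 had no overlap between groups by a narrow margin, with 282 ± 8.33 CPM with TGF-β1 and 293 ± 6.97 CPM in the controls (log2 difference -0.06 ± 0.11 SE, edgeR adjusted p = 0.829). The log2 difference of RPL7 was 0.01. With the GC trend removed RPL7L1 and RPL7 were at -0.13 and -0.17, so that RPL7 then had the more negative value. RPL3L was too low for a ratio to RPL3, a protein near the peptidyl transferase centre, which had 232 ± 29.2 FPKM with TGF-β1 and 250 ± 24.0 FPKM in the controls.

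**Figure D5:**
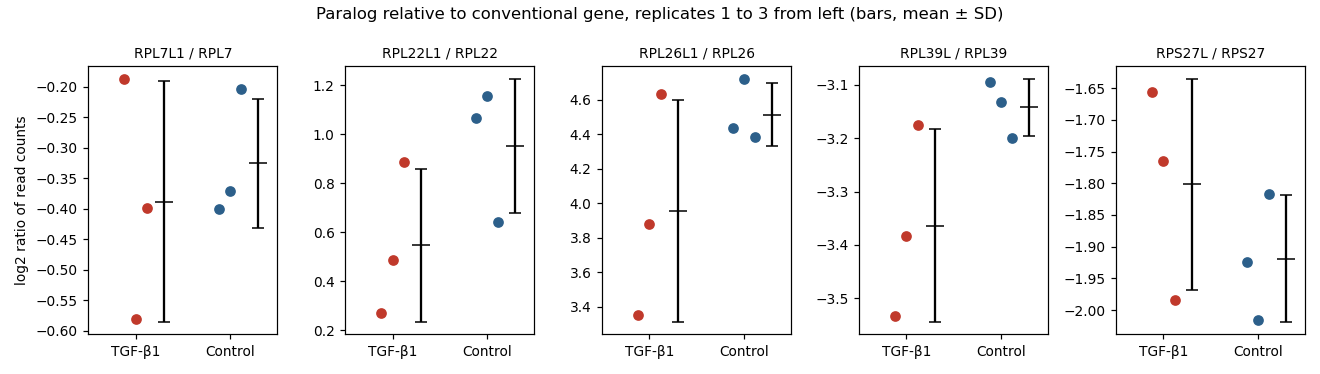
Log2 ratio of read counts of a paralog to its conventional gene in each library, for 5 pairs, with replicates 1 to 3 from left to right in TGF-β1 (left) and control (right) and bars for the mean ± SD; each panel has its own axis. The groups overlap in every panel, and TGF-β1 replicate 1 is the lowest point for RPL22L1, RPL26L1 and RPL39L.

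Genes that work with the ribosome were read from the same test. None was called by edgeR among 74 mitochondrial ribosomal protein genes (median log2 difference -0.05), 52 ribosome biogenesis factors (-0.01) or 20 genes of the RNA polymerase I and III machinery (0.02). The same held for 20 other TOP messenger RNAs (-0.06), 24 translation control genes (0.02) and 13 host genes of small nucleolar RNAs (-0.16), against 0.01 over all tested genes. At an unadjusted p under 0.05 there were 1, 5, 2, 2, 4 and 1 in these 6 lists in that order, beside 15.6% of all tested genes. By an adjusted p under 0.05 DESeq2 called 4 genes over the 6 lists, all higher, where it called 3.41% of all genes higher, and limma voom called 0. FAU, which encodes the ribosomal protein eS30 as a fusion with a ubiquitin-like protein and lies outside the naming rule, had 112 ± 20.6 CPM with TGF-β1 and 115 ± 14.7 CPM in the controls (log2 difference -0.04, edgeR adjusted p = 0.927). Other TOP genes were singled out after their values were seen. TPT1 had 545, 574 and 624 CPM with TGF-β1 and 755, 761 and 696 CPM in the controls, with no overlap (log2 difference -0.34 ± 0.12 SE, edgeR adjusted p = 0.202). EEF1A1, the elongation factor that delivers transfer RNA, had 7318, 7833 and 7935 CPM with TGF-β1 and 8917, 8398 and 9026 CPM in the controls, also with no overlap (log2 difference -0.19 ± 0.11 SE, edgeR adjusted p = 0.436). In TPT1 and EEF1A1 TGF-β1 replicate 1 was the lowest library. Of the 20 other TOP genes 2 lay wholly below the controls and 1 wholly above, against 9.12% and 7.93% of all tested genes. Below and above in the same way lay 4 and 0 of the 13 host genes of small nucleolar RNAs. The counts were 5 and 2 of 74 mitochondrial ribosomal protein genes and 4 and 2 of 52 ribosome biogenesis factors. They were 1 and 0 of 20 polymerase genes and 1 and 1 of 24 translation control genes. RPL36AL, the autosomal copy of RPL36A, had 137, 171 and 113 CPM with TGF-β1 and 93.3, 115 and 114 CPM in the controls (log2 difference 0.39 ± 0.16 SE, edgeR adjusted p = 0.274). LARP1, the TOP-binding repressor, had 449 ± 38.9 CPM with TGF-β1 and 448 ± 23.7 CPM in the controls, a log2 difference of 0.0047 (edgeR adjusted p = 0.99).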

How the data were processed

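RNA from 3 TGF-β1 and 3 control samples of LX-2 cells was sequenced. The labels' protocols give Trizol extraction and library preparation with a NEBNext Ultra RNA kit that keeps no strand information. HISAT2, HTSeq 0.13.5 and GRCh38 are named in the submitters' processing notes without saying what each was used for. Which annotation release they used is not given in these sources. The deposited table holds a read count and an FPKM value per gene and sample, per the file headers. The counts are whole numbers with unequal totals. Gene lengths follow from counts and FPKM. GC content, overlap and coordinates come from GENCODE release 29, which matched 26980 of 27830 genes and may not be the annotation the authors used.

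The test was that of edgeR 4.0.16, run in R 4.3.3 on the deposited counts (robust quasi-likelihood F test, TMM, filterByExpr, Benjamini-Hochberg over 14463 genes, called under 0.05), with SE taken from the F statistic. CPM uses TMM-scaled library sizes (total counts for markers). DESeq2 1.42.0 and limma 3.58.1 were alternatives, beside other scaling and filters, FPKM, removal of GC and length trends (loess, span 0.5), the replicate block and each library left out. The procedure was run on simulated data with set changes of 1.5-fold or more, so the recovery of smaller differences was not examined. Members, lists and roles were chosen with earlier results of these data known. The genes named were those called, the 6 highest and 3 lowest, the 5 largest differences each way, the paralog pairs and untested members, with role examples added. A few genes that the rule names are counted but not reported here.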

Additional observations from a re-analysis of the deposited data

How the results depend on the processing

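No ribosomal protein gene was called higher under any alternative run. 1 was called lower, RPS29, without a filter, with DESeq2, with the GC trend or the GC and length trends removed and without TGF-β1 replicate 3 (0 to 1 with 1 library left out). The median log2 difference of the members stayed negative, at -0.16 to -0.07 over 13 alternatives and -0.20 to -0.02 with 1 library left out. The 53 calls over all genes (27 higher, 26 lower) became 111 with upper quartile factors (57, 54), 1240 without a filter (1071, 169), 615 with DESeq2 (493, 122), 477 with the GC trend removed (235, 242) and 669 with GC and length (322, 347). Leaving out 1 library gave 4 to 1671 calls, 4 to 1374 higher and 0 to 297 lower, with 4 without TGF-β1 replicate 2, 1671 without TGF-β1 replicate 3, 324 without TGF-β1 replicate 1, 13 without control replicate 1 and 15 without control replicate 3. The related lists, with 0 calls, had 10 higher without a filter, 4 with DESeq2, 1 higher and 2 lower with GC and length removed, and 0 to 14 higher and 0 to 2 lower without 1 library. The median log2 difference of all tested genes, 0.01, was -0.0247 (upper quartile), 0.0274 (total counts), 0.0179 (no filter), 0.0150 (FPKM + 1), 0.0216 (FPKM + 0.1), -0.0106 (GC removed), -0.0117 (GC removed with the block) and -0.00145 (GC and length), and lay between -0.00613 and 0.0124 without 1 library.

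The replicate number as a replicate block gave 527 calls over all genes (429 higher, 98 lower), 4 higher in the related lists and 0 ribosomal protein genes, and with the GC trend removed 334 calls (158, 176) and 0. The labels give no batch, so the numbers were not taken as pairs. Deviations of same-numbered libraries correlated at 0.176, 0.1 and -0.355, and those of libraries with unlike numbers at -0.507 to 0.445. With the GC trend removed these were -0.009, 0.0843 and -0.17, and -0.225 to 0.242. Deviations from a group mean depend on each other within the group, so these values do not settle whether the libraries were paired.

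Some values changed sign, none of them called. Of those given here, RPS10 was at 0.41 and RPL3 at -0.12 with all libraries, and the others lay near 0. RPL7 was at -0.02005 (upper quartile), -0.00146 (no filter), -0.17 (GC removed), -0.13 (GC and length), -0.19 (GC with the block) and -0.0651 to 0.0904 without 1 library. RPS2 was at -0.0216 (upper quartile), -0.00423 (no filter) and -0.0884 to 0.134 without 1 library. With GC and length removed, RPL3 was at 0.00086 and RPL41 at 0.0324. Without 1 library RPL41 ranged from -0.0979 to 0.0733 and RPS10 from -0.153 to 0.674. Causes were not tested. Depth limits the members under 100 counts, RPL26, RPL36A, RPS10, RPL17 and RPL3L.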
